A study of Mus musculus with 2 samples.

Results

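The Maf, Bach and Nfe2 genes encode transcription factors of the basic leucine zipper (bZIP) type, and 9 of them were followed here: Maf, Maff, Mafg, Mafk, Bach1, Bach2, Nfe2, Nfe2l1 and Nfe2l2. They were found by the transcript accession of each array probe, which named these 9 of 22910 genes and 11 of 32988 named probes. Total RNA of 1 culture of primary macrophages and of 1 culture of self-renewing macrophages had been labelled with Cy3 and hybridised to Agilent mouse expression arrays, 1 array each. Both cultures were started from bone marrow of C57BL/6 mice, labelled male, in medium with 10% fetal calf serum and 100 ng/ml recombinant human M-CSF, the cytokine that drives growth and survival of macrophages. The primary macrophages were the adherent cells at day 5. The self-renewing macrophages were the growing cells left after passage 4, when most other cells in the culture had stopped dividing. According to the methods, cultures were used uncloned except where a clone is named. The study's purpose in making the arrays was to look for drivers of self-renewal, transcription factors among them. The labels name neither the number of mice nor their age.

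Proteins of this family bind DNA only as dimers. The small Maf proteins MafF, MafG and MafK have a DNA-binding region and a leucine zipper but no activation domain. They pair with one another, or with the CNC proteins, which are Bach1, Bach2, p45 NF-E2, NRF1 and NRF2, the last 3 encoded by Nfe2, Nfe2l1 and Nfe2l2. A pair with NRF2 or NRF1 turns on genes of antioxidant defence, glutathione synthesis and proteasome assembly, whereas a pair with Bach1 represses some of the same genes until heme binds Bach1. The large Maf protein c-Maf, encoded by Maf, has its own activation domain and is known in macrophages for the control of Il10 and of genes of resident cells.

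Each of the 2 arrays held 56605 gene probes. The scanner marked 34808 of them as well above background for primary and 33095 for self-renewing macrophages, and the number of saturated gene spots was 0. A level is given as log2 of the background-corrected intensity relative to the 75th percentile of the gene probes of the same array, which stood at an intensity of 434 in primary and 446 in self-renewing macrophages. A difference is the level in self-renewing macrophages minus that in primary macrophages, in log2. With 1 array per cell type there are no replicates, so no difference could be tested, and only technical spread can be given. Spots of the same probe had a median SD of 0.041 log2 in primary and 0.046 log2 in self-renewing macrophages. Where a gene had several probes, their differences varied by an SD of 0.32 log2, taken over 5077 genes. All 10 markers of a macrophage list, among them Csf1r, Adgre1 and Cd68, were well above background on both arrays. Of 8 Y-linked genes, 1 was well above background in primary and 5 in self-renewing macrophages, and Xist was so in primary macrophages only, although the labels give male mice for both. A difference in sex between the cultures cannot be told apart from the difference between the cell types.

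Of the 9 genes, 7 were well above background on both arrays and all 7 of these were higher in self-renewing macrophages, by 1.21-fold to 2.18-fold, with a median difference of 0.50 log2. Nfe2 was well above background in primary macrophages only and was at least 15.2-fold lower in self-renewing macrophages. Bach2 was well above background on neither array. Beyond 2-fold lay 1 higher gene, Maff, and 1 lower gene, Nfe2. For comparison, 15516 named genes were measured above background in 1 or both cell types. Of these, 4.76% passed 2-fold upwards and 8.38% downwards, 13.1% in all, and 47.9% were higher by any amount. With the genes above background in both cell types, 14003 in number, these shares were 4.2%, 5.58%, 9.78% and 50.7%. The median difference over all 15516 genes was -0.02 log2, with a middle range from -0.33 to 0.27 log2.

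**Figure D1:**
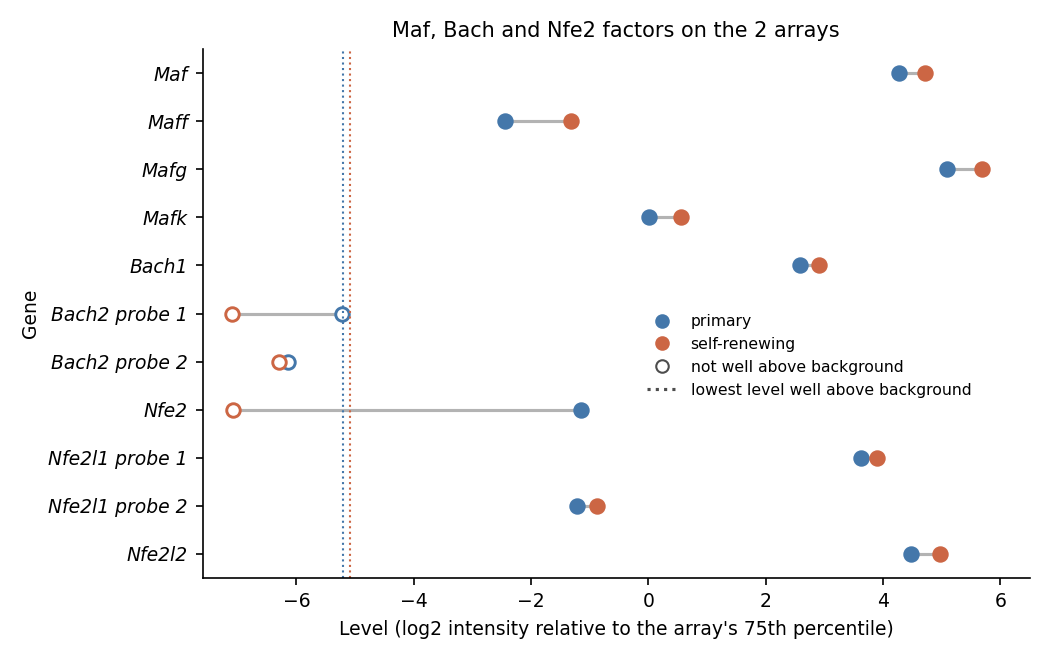
Level of each probe in primary (blue) and self-renewing (orange) macrophages, in log2 intensity relative to the 75th percentile of that array. Open circles were not well above background, and dotted lines mark the lowest level well above background on each array, at -5.20 log2 in primary and -5.08 log2 in self-renewing macrophages. Except for Bach2 and Nfe2, every probe is filled on both arrays and sits further right in self-renewing macrophages.

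The promoters of 7 of the 9 genes were found in a RefSeq table of the GRCm38.p6 assembly, which gave 13 start sites, 5 of them for Nfe2l1 and 3 for Maff. Maf and Nfe2 had no entry. The 250 bases before each start were searched on both strands for the core of the antioxidant response element, TGACNNNGC, which NRF2 with a small Maf recognises, for the AP-1 site TGACTCA and for the Maf half-site TGCTGA. An AP-1 site followed by GC also counts as a core, and a half-site may overlap either. The core was present before Nfe2l2, Mafk, Mafg and the first of the Maff starts, in 4 of 13 windows, and in 10.2% of all 32851 promoters of the same length. The AP-1 site was in 0 of the 13 windows and in 4.46% of all promoters. The Maf half-site was in 5 windows of 3 genes, Mafk, Nfe2l1 and Bach1, and in 16.1% of all promoters. The 3 windows of Nfe2l1 among these overlap and share 1 and the same site, so that it is counted 3 times. The windows that hold the core are printed together with that of Bach1, which lacks it, with each match to one of these motifs in capitals. They run 5′ to 3′ in the direction of the gene and end at the base before the start site.
Nfe2l2: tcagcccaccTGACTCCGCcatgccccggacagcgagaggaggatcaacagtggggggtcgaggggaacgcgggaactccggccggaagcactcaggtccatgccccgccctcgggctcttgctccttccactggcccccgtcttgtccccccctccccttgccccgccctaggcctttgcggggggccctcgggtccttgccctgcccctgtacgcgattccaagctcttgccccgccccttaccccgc
Mafg: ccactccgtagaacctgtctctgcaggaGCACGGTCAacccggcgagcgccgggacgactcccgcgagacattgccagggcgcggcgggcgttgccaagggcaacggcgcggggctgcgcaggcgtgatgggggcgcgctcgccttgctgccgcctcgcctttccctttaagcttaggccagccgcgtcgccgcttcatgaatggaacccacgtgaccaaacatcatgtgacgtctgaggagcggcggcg
Mafk: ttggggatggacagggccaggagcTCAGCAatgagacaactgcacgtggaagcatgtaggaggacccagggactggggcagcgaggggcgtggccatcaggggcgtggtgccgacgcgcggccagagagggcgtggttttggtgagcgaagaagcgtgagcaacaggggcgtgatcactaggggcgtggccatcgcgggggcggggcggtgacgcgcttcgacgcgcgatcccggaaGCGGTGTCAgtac
Maff: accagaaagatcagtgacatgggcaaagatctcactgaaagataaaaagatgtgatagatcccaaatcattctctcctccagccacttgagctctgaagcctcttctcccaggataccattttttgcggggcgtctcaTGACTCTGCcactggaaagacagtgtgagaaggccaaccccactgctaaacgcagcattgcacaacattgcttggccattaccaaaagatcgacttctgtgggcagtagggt
Bach1: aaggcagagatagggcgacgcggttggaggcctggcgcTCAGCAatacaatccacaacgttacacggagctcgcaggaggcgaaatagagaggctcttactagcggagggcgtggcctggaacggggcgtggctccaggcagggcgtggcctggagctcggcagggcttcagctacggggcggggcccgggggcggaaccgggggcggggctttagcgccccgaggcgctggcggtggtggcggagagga
The Nfe2l2 window lies at chr2:75704664-75704913 on the minus strand, and its core TGACTCCGC covers positions -240 to -232, counted back from the start site. The Mafg window lies at chr11:120633548-120633797 on the minus strand, with the core TGACCGTGC on the other strand. The Mafk window lies at chr5:139791286-139791535 on the plus strand, with the core TGACACCGC on the other strand at positions -13 to -5, and a half-site further upstream. The Maff window lies at chr15:79346371-79346620 on the plus strand and holds TGACTCTGC. The Bach1 window lies at chr16:87698704-87698953 on the plus strand and holds a half-site only. The 4 genes with a core also had the 4 largest differences of the 7 members measured on both arrays. This is a description of a few genes with no test, and Maf, the next in order, has no window here. Apart from Maff, these members differ from one another by less than the SD of 0.32 log2 between probes of 1 gene, so that their order is not firm. Apart from that of Maff, with 48% G and C, the printed windows had between 67.2% and 70.4% G and C, where the median of all promoters was 52.4%.

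The small Maf genes, whose products are the partners of all the CNC factors, were each higher in self-renewing macrophages. The background-corrected intensity of the Mafg probe was 14839 in primary and 22991 in self-renewing macrophages, and its level was 5.10 and 5.69 log2 in turn. The difference was 0.59 log2, or 1.51-fold, with an error of 0.20 log2 from the scanner's own estimate of the error of each spot. This estimate covers the measurement of the spots and not the variation between cultures. It lay between 0.20 and 0.21 log2 for every member probe measured on both arrays, so that it does not set 1 gene apart from another. The Mafk probe gave intensities of 437 and 656, which is a difference of 0.55 log2, or 1.46-fold. Maff, which is known as a gene induced by stress and inflammatory signals, was dim on both arrays. Its intensity was 79.8 in primary and 179 in self-renewing macrophages, and its difference of 1.12 ± 0.21 log2 (scanner error), or 2.18-fold, was the largest upward difference among the members. Of all genes, 3.96% were as high or higher by this measure, against 10.8% for Mafg and 12.0% for Mafk. The model-based normexp background correction, which draws dim probes together, brought Maff to 0.73 log2 and so below 2-fold. All 3 small Maf genes had 1 probe each.

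Maf, which encodes the large factor c-Maf, was bright on both arrays. Its intensity was 8412 in primary and 11725 in self-renewing macrophages, and the level went from 4.28 to 4.72 log2. The difference of 0.44 ± 0.20 log2 (scanner error) corresponded to 1.35-fold, and 15.8% of all genes were as high or higher. It was larger than the SD of 0.32 log2 between probes of 1 gene and lay between 0.42 and 0.63 log2 under the alternative ways of processing. The other large Maf gene looked at, Mafa, known from the insulin-producing cells of the pancreas, differed by 0.11 log2 with intensities of 1824 and 2020. Nrl, a large Maf gene of rod photoreceptors, was well above background on neither array.

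Nfe2l2 encodes NRF2, the main activator of antioxidant genes, which is held low by degradation of the protein, so that its mRNA is not a measure of its activity. Its probe gave an intensity of 9616 in primary and 13989 in self-renewing macrophages. The difference was 0.50 ± 0.20 log2 (scanner error), or 1.41-fold, and 13.5% of all genes were as high or higher. Nfe2l1 encodes NRF1, which is made at the endoplasmic reticulum and activates proteasome genes when it escapes degradation. It was measured by 2 probes of very different brightness. The brighter probe gave 5322 and 6624, a difference of 0.27 log2 or 1.21-fold. The dimmer probe gave 187 and 244, a difference of 0.34 log2 or 1.27-fold. Both probes were thus higher in self-renewing macrophages, and they differed from each other by less than the SD between probes of 1 gene. The brighter one was the only member measured on both arrays whose difference was below that SD. Nfe2l3, a further CNC gene, differed by -0.15 log2 in the probe that was well above background.

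Bach1, the heme-sensitive repressor, was present on both arrays. Its intensity was 2586 in primary and 3332 in self-renewing macrophages, a difference of 0.32 ± 0.20 log2 (scanner error) or 1.25-fold, about as large as the SD between probes of 1 gene, and 21.1% of all genes were as high or higher. Thus Bach1, which represses, and Nfe2l2, which activates through the same DNA element, were both higher in self-renewing macrophages, and the order of their differences has no test. Bach2, a repressor best known from B and T lymphocytes, had 2 probes. Their intensities were 11.5 and 6.15 in primary macrophages and 3.25 and 5.67 in self-renewing macrophages. The lowest intensities well above background were 11.8 and 13.2 on the 2 arrays, so that all 4 values lay below them and no fold is given.

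Nfe2 encodes p45 NF-E2, the factor known for platelet formation by megakaryocytes and for globin genes in erythroid cells. Its probe gave an intensity of 195 in primary macrophages, at a level of -1.15 log2, and of 3.31 in self-renewing macrophages, where the scanner's error of 3.32 was as large as the signal itself. Only a bound can be given for it, -3.93 log2 or at least 15.2-fold lower in self-renewing macrophages, against the lowest level well above background on that array. Of all genes, 1.04% were as low or lower. The bound was -1.83 log2 with the normexp correction. Nfe2 has 1 probe, and its level on the primary array lay 4.05 log2 above the lowest level well above background there.

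**Figure D2:**
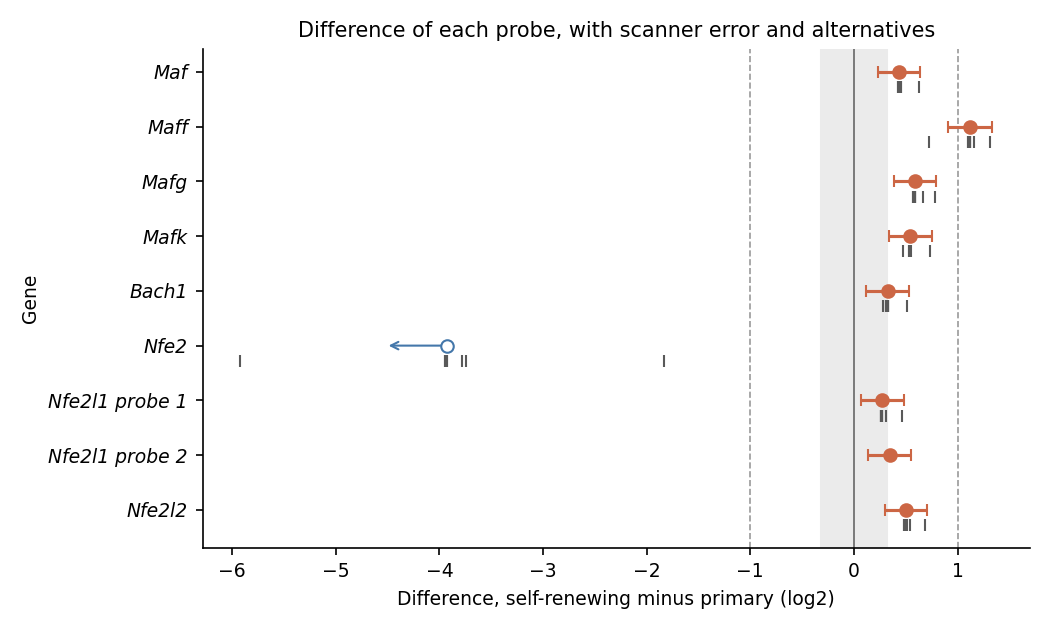
Difference of each probe that was well above background on at least 1 array, self-renewing minus primary in log2. Bars are the scanner's error of the difference, the grey band is the SD of 0.32 log2 between probes of 1 gene, dashed lines mark 2-fold, and small ticks give the value under each alternative. The open circle with an arrow is the bound of Nfe2. All other points lie above 0 under every alternative shown, and only Maff passes 2-fold.

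Nfe2 is a gene of megakaryocytes and red cell precursors, and marker lists of these and of neutrophils were set beside it. In bulk RNA, fewer cells of a type and less RNA per cell cannot be told apart. Of 10 megakaryocyte and platelet markers, all 10 were well above background in primary and 6 in self-renewing macrophages, and 8 were lower there, with a median of -0.84 log2. Their summed scaled intensity was 276 times the 75th percentile in primary and 72.8 times in self-renewing macrophages. Pf4, a platelet chemokine, made up most of both sums and nearly all of the difference between them, at intensities of 111068 and 24187. Whether this Pf4 signal came from platelets or from the macrophages was not tested. Itga2b, Gp1ba, Gp9 and Ppbp, which define the lineage, were not well above background in self-renewing macrophages. The 8 measured neutrophil markers each lay lower in self-renewing macrophages. Their median was -5.26 log2 and their summed scaled intensity 106 against 6.40, with S100a8, S100a9, Ltf and Ngp not well above background in self-renewing macrophages. Of 6 erythroid markers, 4 were lower and 2 higher, with a median of -0.41 log2 and a summed scaled intensity of 3.48 against 2.72. The globin gene Hba-a1 was the 1 marker beyond 2-fold, with intensities of 490 and 153 and differences of -1.72 and -2.65 log2 by its 2 probes. The higher ones were Klf1 and Ermap, at 0.02 and 0.11 log2. Alas2, the first enzyme of heme synthesis in red cell precursors, was well above background on neither array, and Gata1 was so in primary macrophages only, at a level of -4.44 log2. The part of these cells in the difference of Nfe2 was not tested.

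For the lymphocyte gene Bach2, the markers of B cells were set beside it. Of 10, 7 were well above background in primary and 5 in self-renewing macrophages, with a summed scaled intensity of 37.3 against 65.8, most of it from Blnk, which macrophages also express. Ms4a1, Ebf1 and Igll1 were well above background on neither array, and Cd79b was so in primary macrophages only, at an intensity of 696. Of 10 T cell markers, 6 were well above background on both arrays, with a median of -0.06 log2 and summed scaled intensities of 8.52 and 8.10. Stromal markers were the fewest, with 4 of 10 well above background in primary and 3 in self-renewing macrophages, and summed scaled intensities of 61.5 and 55.8. Most of both sums came from Acta2, at intensities of 22394 and 20890. Col1a1, Col3a1, Pdgfra, Pdgfrb, Dcn and Lum were well above background on neither array.

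**Figure D3:**
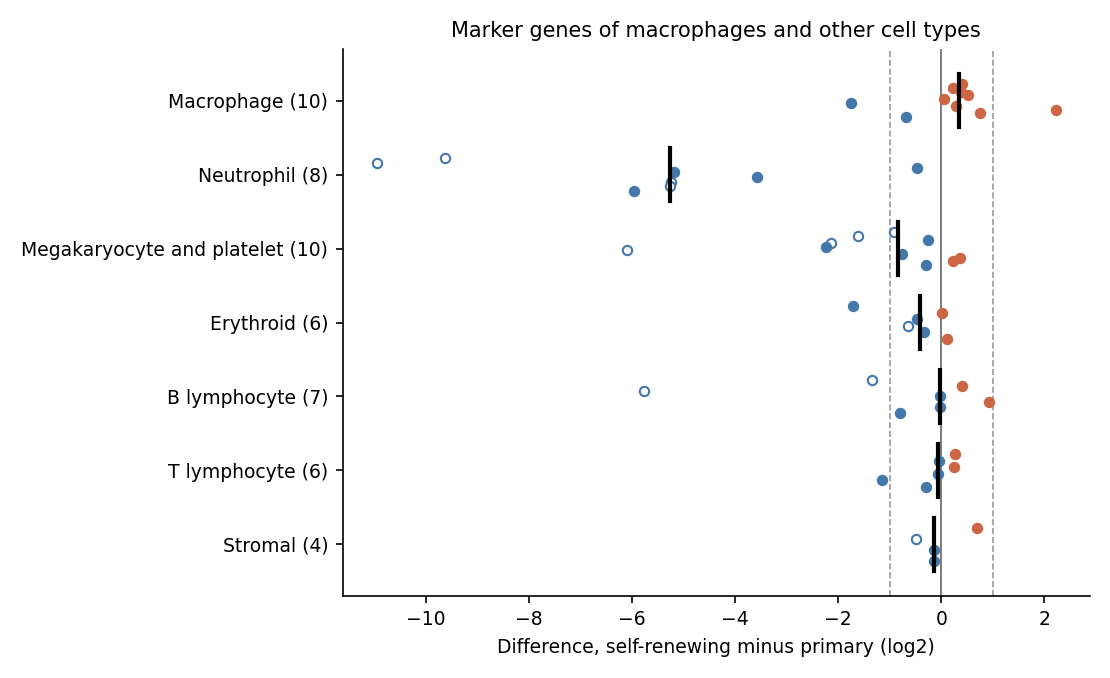
Differences of marker genes, self-renewing minus primary in log2, with the number of measured genes in brackets. Filled circles were well above background on both arrays, open circles are bounds, black bars are medians and dashed lines mark 2-fold. The medians are 0.34 log2 for macrophage, -5.26 for neutrophil, -0.84 for megakaryocyte, -0.41 for erythroid, -0.14 for stromal, -0.06 for T lymphocyte and -0.03 for B lymphocyte markers. All genes have a median of -0.02 log2 and a middle range from -0.33 to 0.27 log2, which holds the stromal and lymphocyte medians. The marker lists were not run under the alternatives.

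The genes that control the amount of NRF2 protein were all expressed, and few differed. Of 17 such genes, all 17 were well above background on both arrays, 1 passed 2-fold upwards and 0 downwards, and the median was 0.12 log2. The share beyond 2-fold was 5.88%, against 13.1% of all genes. Keap1, which binds NRF2 and hands it to the ubiquitin ligase of Cul3 and Rbx1, gave intensities of 3498 and 3637, a difference of 0.02 log2. Cul3 and Rbx1 differed by -0.06 and -0.05 log2, and Sqstm1, the autophagy receptor that draws Keap1 away, by 0.12 log2. The gene beyond 2-fold was Btrc, a further ubiquitin ligase subunit for NRF2, at 2.01-fold higher, although its other probe gave 0.07 log2, and under 4 of the 9 alternatives it fell short of 2-fold. The median of the list was 0.21 log2 with quantile normalization and 0.31 log2 with the authors' scaled values. The largest difference in the other direction was that of Palb2, a DNA repair protein that binds Keap1, at -0.83 log2. Keap1, Cul3, Rbx1 and Sqstm1 were named after their values were seen.

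For the handling of the NRF1 and Bach proteins, all 14 genes of a list were well above background on both arrays and 0 were beyond 2-fold in either direction. The median was -0.04 log2, and 0.14 log2 with the authors' scaled values, so that it has no fixed sign. The largest differences were those of Xpo1, the nuclear export receptor, at -0.68 log2, and of Ngly1, the enzyme that removes sugars from NRF1 and thereby helps to activate it, at 0.51 log2. Ddi2, the protease that cleaves NRF1, differed by -0.03 log2. It was named after its value was seen.

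Antioxidant and detoxification genes, known as targets of NRF2 with small Maf partners, went in both directions. Of 31 measured genes, 3 passed 2-fold upwards and 6 downwards, in all 29.0% against 13.1% of all genes, and 13 were higher and 18 lower by any amount. The median was -0.14 log2, and 0.05 log2 with the authors' scaled values, so that its sign depended on the scaling. The glutathione transferase Gsta3 had intensities of 506 and 10194 and was 19.6-fold higher, and both its probes gave over 4 log2. Ephx1, an epoxide hydrolase, was 9.59-fold higher, and Osgin1, a stress-induced growth inhibitor, was 2.19-fold higher. In the other direction, Mgst1, a membrane-bound glutathione transferase, had an intensity of 5441 in primary macrophages and was not well above background in self-renewing macrophages, with a bound of at least 425-fold lower. Gstp1 was 11.3-fold lower, and Aox1, an aldehyde oxidase, was at least 2.79-fold lower. Glutathione transferases of 1 class are close in sequence, and whether their probes share signal was not tested. The genes most often used to read NRF2 activity, named after their values were seen, gave no common direction. Nqo1 was at -0.74 log2 and Srxn1 at -1.04 log2, while Gclm and Gclc, the subunits of the enzyme that starts glutathione synthesis, were at 0.55 and 0.33 log2, and Txnrd1 was at -0.28 log2.

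Genes of heme and iron handling, of which only a part is known to be repressed by Bach1, were measured on both arrays in 14 of 14 cases. Of these, 9 were higher and 5 lower in self-renewing macrophages, 1 passed 2-fold in each direction, and the median was 0.19 log2. The share beyond 2-fold was 14.3%, close to the 13.1% of all genes. Slc40a1, which encodes ferroportin, the exporter of iron from macrophages, had intensities of 1766 and 6202 and was 3.41-fold higher. Tfrc, the receptor for iron uptake, was 2.66-fold lower, and its 2 probes gave -1.41 and -1.40 log2. Hmox1, the heme-degrading enzyme that Bach1 represses, had intensities of 25534 and 49967 and was 1.90-fold higher, just under 2-fold. With quantile normalization, and with the authors' scaled values, the list held 2 genes at least 2-fold higher. The ferritin subunits Fth1 and Ftl1 were each at -0.02 log2. Hmox1, Fth1 and Ftl1 were named after their values were seen.

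Proteasome genes, which NRF1 is known to activate, differed little. All 36 genes were well above background on both arrays, 0 were beyond 2-fold in either direction, and 27 were lower and 9 higher in self-renewing macrophages. Their differences ran from -0.43 to 0.15 log2 around a median of -0.12 log2, which was 0.07 log2 with the authors' scaled values. The lowest were Psmd14 and Psmd12, subunits of the regulatory particle, at -0.43 and -0.32 log2.

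Genes tied to c-Maf in macrophages lay on both sides of 0. Of 16 measured genes, 6 passed 2-fold upwards and 4 downwards, which is 62.5% of the list beside 13.1% of all genes, and the other 6 lay within 2-fold. The median was 0.05 log2, but 0.24 log2 with the authors' scaled values, 0.25 log2 with quantile normalization and 0.39 log2 when probes had to be above background in both cell types. The complement genes C1qa, C1qc and C1qb were 13.4-fold, 3.91-fold and 3.20-fold higher, with intensities of C1qa going from 3706 to 51220. On the lower side, Il10, which encodes the anti-inflammatory cytokine, had intensities of 215 and 24.1 and was 9.18-fold lower. Cd36, a scavenger receptor, was 7.38-fold lower. F13a1, a coagulation factor of monocytes, was at least 200-fold lower by its brighter probe, whereas a dim second probe gave a bound of -0.45 log2 only. Lyve1, Timd4 and Il12a were well above background on neither array. Csf1r and Adgre1 stand both on this list and on that of macrophage markers.

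**Figure D4:**
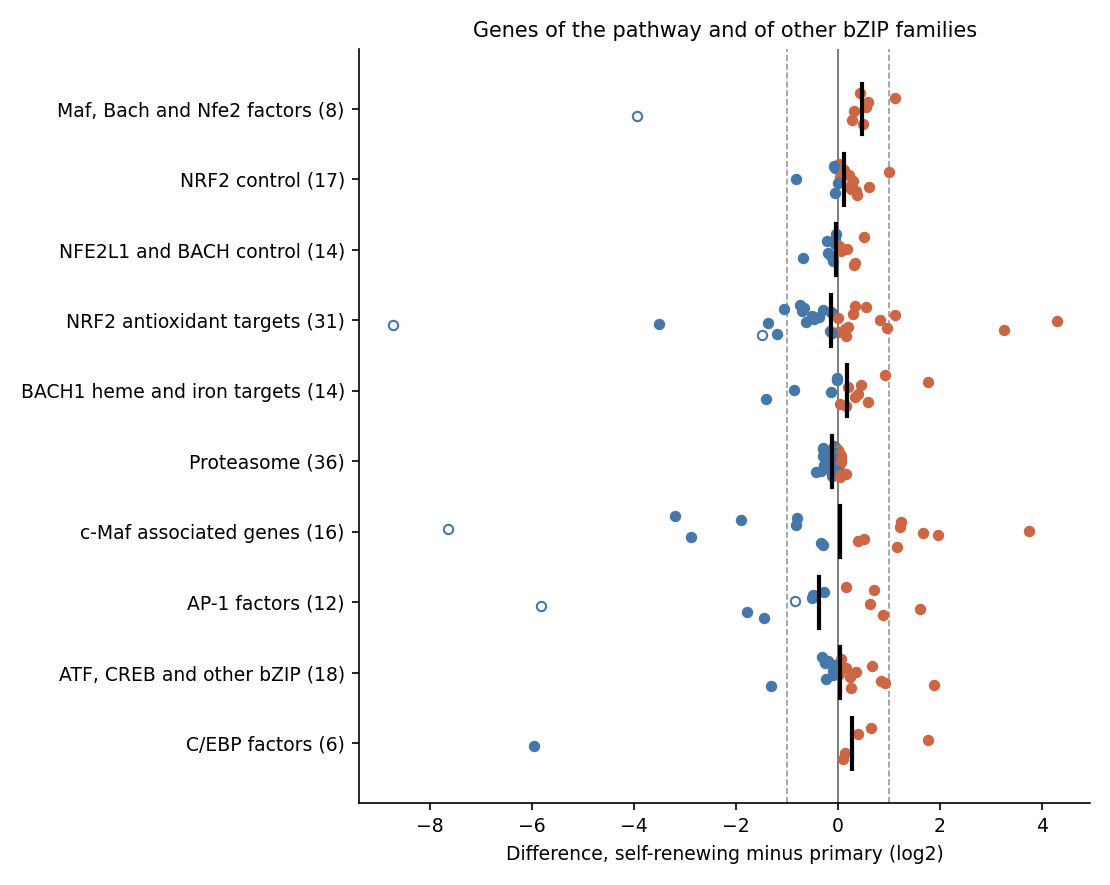
Differences of the genes of each list, self-renewing minus primary in log2, with the number of measured genes in brackets. Filled circles were well above background on both arrays, open circles are bounds, black bars are medians and dashed lines mark 2-fold. The Maf, Bach and Nfe2 factors cluster above 0 apart from Nfe2, with their median at 0.47 log2 over 8 genes. Proteasome genes lie within 2-fold, and the antioxidant and c-Maf associated genes spread to both sides.

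Other bZIP families were looked at for contrast. Of 12 AP-1 factors, 1 was at least 2-fold higher, Batf2 at 3.07-fold, and 3 were at least 2-fold lower, namely Batf by at least 56.4-fold, Batf3 by 3.45-fold and Atf3 by 2.72-fold. The median of this family was -0.37 log2, against 0.47 log2 for the 8 measured Maf, Bach and Nfe2 genes, with 5 genes higher and 7 lower. It was -0.20 log2 with normexp, -0.18 log2 with the authors' scaled values and -0.052 log2 with only probes well above background on both arrays. Of 18 ATF, CREB and other factors, 1 was at least 2-fold higher, the clock output factor Dbp at 3.71-fold, and 1 at least 2-fold lower, its antagonist Nfil3 at 2.46-fold, with a median of 0.05 log2. By any amount, 10 of these 18 were higher and 8 lower. Of 6 C/EBP factors, Cebpd was 3.43-fold higher and Cebpe 62.2-fold lower, with a median of 0.27 log2. By any amount, 5 of the C/EBP factors were higher and 1 lower, and of the 8 Maf, Bach and Nfe2 genes 7 were higher and 1 lower. Cebpe, a factor of granulocyte maturation, is also on the list of neutrophil markers, which were lower as a group. Beyond 2-fold lay 33.3% of the AP-1, 11.1% of the ATF, CREB and other and 33.3% of the C/EBP factors, against 13.1% of all genes. Of all genes, 47.9% were higher by any amount. The difference between the families was not tested.

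**Figure D5:**
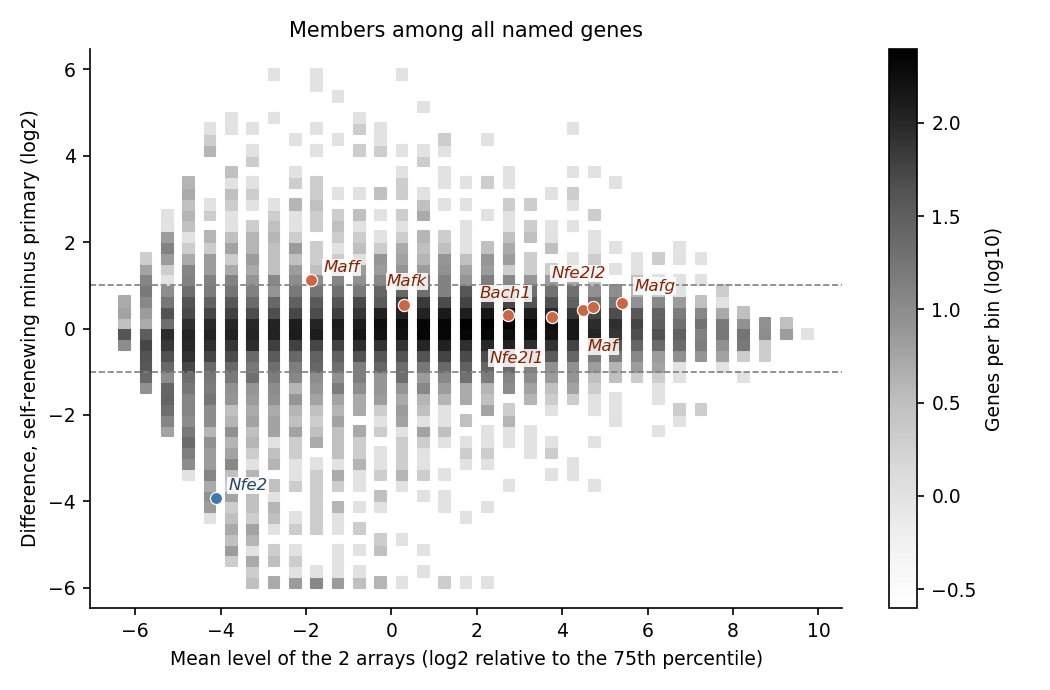
Mean level of the 2 arrays (x axis, log2 relative to the 75th percentile) against the difference, self-renewing minus primary (y axis, log2), for 15516 named genes, shown in grey as the number of genes per bin, with differences beyond 6 log2 drawn at the edge. Orange and blue points are the members, and dashed lines mark 2-fold. Maff at 1.12 log2 and the bound of Nfe2 at -3.93 log2 lie outside the dashed lines. The other 6 lie inside them, between 0.27 and 0.59 log2. For each of these 6, between 10.8% and 24.3% of all genes were as high or higher.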

How the data were processed

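Both samples were hybridised to 1-colour Agilent mouse arrays. Per the file headers, Feature Extraction 11.5.1.1 produced the deposited spot intensity, which was background-subtracted and detrended within its array but not scaled between arrays. A second deposited table by the authors holds each intensity multiplied by 1 constant per array, 1.07 for primary and 1.19 for self-renewing macrophages. How these were chosen is not given in the sources used here. From the scanner's intensity, log2 was taken here, control spots and the 63 gene spots with an outlier flag on each array were left out, spots of 1 probe were averaged, and each array's 75th percentile was subtracted. Probes were named through RefSeq or Ensembl accessions of the genes of GRCm38.p6, which matched 32988 of 56598 probes. A gene was represented by its brightest probe among those above background in 1 or both samples, and a probe well above background on 1 array only was given a bound. The threshold of 2-fold is one of size. No test was made, since there is 1 array per cell type, and this number limits the precision. The members, lists, motifs and alternatives were chosen with earlier results of these data known. Named from the lists were the genes beyond 2-fold, or the 3 largest in each direction where these were over 6, or the 2 largest differences where these were under 2. Exceptions are marked in the text. Values of some marker genes are not reported here. The 10 lists of pathway and bZIP genes, the 7 marker lists and the 9 alternatives were written by hand. The steps were tested on simulated data. Software was limma 3.58.1 in R 4.3.3 for normexp, and numpy 2.4.6, pandas 2.3.3 and, for the plots, matplotlib 3.10.9 in Python 3.11.15.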

Additional observations from a re-analysis of the deposited data

How the results depend on the processing

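No paired analysis was possible because there was 1 array for each kind of macrophage. A gene's difference was taken as unmoved by an alternative when it shifted by less than the SD of 0.32 log2 between probes of 1 gene. For the median of a list, that SD was divided by the square root of the number of genes. The 7 members measured on both arrays were higher in self-renewing macrophages under each of the 9 alternatives, and 68 of 71 differences of members stayed within the SD. Many of these could not have moved. For such a gene, both changes of the background filter leave the value as it is, as does the mean over probes where it has 1 probe. Both scalings over probes well above background and the authors' scaled values shift all members by the same amount, which was below that SD. The exceptions were Maff and Nfe2 with normexp, at 0.73 and -1.83 log2, and Nfe2 with no filter on background, at -5.92 log2. The count of members at least 2-fold higher was 0 with normexp, and the count at least 2-fold lower was 0 with only probes well above background on both arrays, since Nfe2 then has no value. With the authors' scaled values the median of all genes was 0.17 log2 instead of -0.02 log2, and 49.2% of the genes beyond 2-fold were higher instead of 36.2%. The medians were then 0.31 log2 for the control of NRF2, 0.14 for NRF1 and Bach handling, 0.050 for antioxidant targets, 0.38 for heme and iron genes, 0.066 for the proteasome, 0.24 for c-Maf associated genes, -0.18 for AP-1, 0.24 for ATF and CREB and 0.46 for C/EBP, and the genes at least 2-fold higher were 5 antioxidant, 2 heme and iron, 2 AP-1 and 3 ATF and CREB genes. Quantile normalization gave medians of 0.21 log2 for the control of NRF2 and 0.25 for c-Maf associated genes, and 2 heme and iron genes at least 2-fold higher. Normexp gave medians of 0.15 for c-Maf associated genes and -0.20 for AP-1, and only probes well above background on both arrays gave 0.39 and -0.052. The count of NRF2 control genes at least 2-fold higher was 0 with normexp, with both scalings over probes well above background and with the mean over probes. Normexp gave 429 genes higher and 750 lower at 2-fold, against 739 and 1300, no filter on background gave 1192 and 2336, and only probes well above background on both arrays gave 782 lower. Nfe2 in self-renewing macrophages and Bach2 on both arrays were not well above background, so that their levels there are not known.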
